A study of Mus musculus with 15 samples.

Results

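The 10 genes described here encode the NF-kB transcription factor subunits and the proteins that hold them back. They were taken by symbol from a list, and all 10 of the list were among the 11201 genes of the expression table. Rela, Rel, Relb, Nfkb1 and Nfkb2 encode the 5 subunits. Nfkbia, Nfkbib and Nfkbie encode the inhibitors IkB alpha, IkB beta and IkB epsilon. Tnfaip3 encodes a ubiquitin-editing enzyme, and Tnip3 a protein of the family that binds it. Their RNA was measured by RNA sequencing in ESdM, microglia derived in culture from embryonic stem cells of the mouse line C57BL/6-ATCC. ESdM are a cultured model, and the labels do not say how many derivations of the line were used. There were 3 libraries of cells given LPS+IFNg (500 ng/ml of LPS, a bacterial cell wall component, with 20 ng/ml of interferon gamma), 3 given IL4 (100 U/ml), 3 given TGFb (50 ng/ml) and 6 left untreated. All 4 groups were kept in N2 medium, and stimulation lasted 24 h.

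NF-kB proteins act as dimers that wait in the cytoplasm bound to IkB proteins. Receptors for bacterial products and for tumour necrosis factor switch on kinases that mark IkB for destruction, and the freed dimers enter the nucleus and switch on inflammatory genes. Among the genes that NF-kB switches on are several of its own subunits and inhibitors, so the pathway holds negative feedback loops. In microglia, the macrophages of the brain, the pathway is best known for the response to infection and injury. RelA, c-Rel and RelB carry the domains that activate transcription, while the products of Nfkb1 and Nfkb2 are precursors that are cut to their DNA-binding parts and act as inhibitors before they are cut.

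The libraries held 2682564 to 18676181 reads, with a median of 7589049, as recovered from the steps of the values. The deposited values are normalized read counts, read counts divided by 1 factor per library. The 10 genes had 18 to 4739 reads in a library, and all 10 passed the filter on low values. The labels do not state separate cultures for the libraries within a group. The p-values therefore rest on the variation among these libraries alone, which can be technical. LPS+IFNg replicate 3 stood apart from replicates 1 and 2: a chi-square of the reads per degree of freedom was 26.0 and 26.5 against them, while the other pairs within groups had 1.42 to 7.57 (this measure also grows with depth). Changes of the 10 genes with LPS+IFNg, their shares and ratios, and the counts of the pathway lists are therefore given with and without it. Of 12 markers of microglia and macrophages, 10 were in the table, and their summed level was 19892 to 22276 with LPS+IFNg, 24303 to 24790 with IL4, 28092 to 29766 with TGFb and 21574 to 23039 in untreated cells. Cd68 was the largest part of this sum in every group, and single markers moved in different directions. With LPS+IFNg Aif1 averaged 219 against 24.8 in untreated cells, while Trem2 averaged 1040 against 1693 and Tyrobp 1864 against 2900. Cx3cr1 averaged 3.30 with LPS+IFNg, 1.49 with IL4, 39.5 with TGFb and 2.60 in untreated cells. P2ry12 and Adgre1 were not analysed here. None of 8 embryonic stem cell markers or 6 fibroblast markers was in the table. Markers of neurons, astrocytes, oligodendrocytes and lymphocytes had 1 or 2 members each in the table, with sums of at most 258. The neuron marker Syn1 had 45.2 to 62.8 normalized reads with LPS+IFNg, 201 to 258 with IL4, 92.9 to 121 with TGFb and 165 to 223 in untreated cells. Of 6 endothelial markers, Pecam1 and Vwf were in the table and summed to 113 to 127 with LPS+IFNg, 201 to 244 with IL4, 695 to 802 with TGFb and 179.8 to 237 in untreated cells, nearly all of it Vwf. The part of these markers in the results below was not tested. In such bulk samples, more cells of a type and more RNA per cell cannot be told apart.

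The promoters of these genes are shown because several hold the letters that NF-kB binds. RefSeq (GRCm38.p6) gave 11 promoters for 8 of the 10 genes, each from 250 bases before the start to 50 after it, and none was used for Nfkb1 and Relb. The kappa-B consensus, 10 bases long, was searched on both strands, and matches may overlap. In the lines that follow each sequence runs 5′ to 3′ on the gene's strand, and the capitals mark the kappa-B matches. The Nfkb2 window is the first of its 3 and lies at chr19:46304487-46304786 (plus strand). The Nfkbia window lies at chr12:55492598-55492897 (minus strand), that of Nfkbie at chr17:45555450-45555749 (plus strand), and that of Tnfaip3, the first of 2, at chr10:19015361-19015660 (minus strand).
Nfkb2: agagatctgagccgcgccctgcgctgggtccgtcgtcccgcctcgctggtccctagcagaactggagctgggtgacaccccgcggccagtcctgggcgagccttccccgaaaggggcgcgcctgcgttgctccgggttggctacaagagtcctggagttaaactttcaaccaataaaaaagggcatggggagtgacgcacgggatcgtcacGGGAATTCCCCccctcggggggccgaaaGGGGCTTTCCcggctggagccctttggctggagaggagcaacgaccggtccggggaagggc
Nfkbia: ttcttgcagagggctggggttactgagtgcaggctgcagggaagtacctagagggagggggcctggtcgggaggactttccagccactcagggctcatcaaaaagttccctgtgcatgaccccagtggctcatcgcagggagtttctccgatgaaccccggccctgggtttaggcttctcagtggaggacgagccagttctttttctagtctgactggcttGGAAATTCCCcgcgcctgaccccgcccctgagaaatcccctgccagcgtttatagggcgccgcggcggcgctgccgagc
Nfkbie: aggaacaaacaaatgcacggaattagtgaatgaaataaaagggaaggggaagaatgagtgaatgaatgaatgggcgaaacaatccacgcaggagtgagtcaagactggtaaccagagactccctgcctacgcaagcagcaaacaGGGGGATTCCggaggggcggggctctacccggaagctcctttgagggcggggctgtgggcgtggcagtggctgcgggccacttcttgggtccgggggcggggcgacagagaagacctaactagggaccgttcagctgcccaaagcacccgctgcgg
Tnfaip3: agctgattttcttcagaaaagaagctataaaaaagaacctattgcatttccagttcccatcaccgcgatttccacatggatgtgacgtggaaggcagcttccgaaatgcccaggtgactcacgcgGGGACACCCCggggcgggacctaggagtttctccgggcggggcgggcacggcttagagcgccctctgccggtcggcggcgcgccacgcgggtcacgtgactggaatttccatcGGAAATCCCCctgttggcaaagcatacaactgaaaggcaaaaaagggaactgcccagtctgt

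Counting back from -1 just before the start, the Nfkbia match GGAAATTCCC lay at -29 to -20 and the Nfkbie match GGGGGATTCC at -106 to -97. The Nfkb2 window held overlapping matches from -39 to -29 and GGGGCTTTCC at -11 to -2. In Tnfaip3, GGAAATCCCC lay at -12 to -3 and GGGACACCCC at -125 to -116. Rel (chr11:23770920-23771219, minus strand) and Tnip3 (chr6:65590148-65590447, plus strand) held the same letters, GGGAAATCCC, at -92 to -83 in Rel and -54 to -45 in Tnip3. The Tnip3 window lies well inside the annotated gene (chr6:65525313-65634040), at a RefSeq start that is not the first base of that gene. No match was in the windows of Rela and Nfkbib. In all, 8 of the 11 promoters held a match, against 10.43% of the 10882 promoters of genes in the expression table. All Nfkb2 windows are among them, and those not printed overlap each other and share a GGGACTTTCC site, so promoters of a gene are not independent. By gene, 6 of 8 held a match, against 12.29% of 8535. The core letters of the gamma-activated site, TTCNNNGAA, which read the same on both strands, were in 1 of the 11 promoters, the Nfkb2 window above (TTCCCCGAA at -148 to -140), against 6.699% of the 10882. A match is a stretch of letters and does not show binding in these cells.

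With LPS+IFNg, RNA of all 10 genes rose against untreated cells, and for each of the 10 every LPS+IFNg library was above every untreated library. Of all 11138 genes tested, 29.5% were called higher and 25.8% lay without overlap above untreated (29.4% were called lower). The 10 genes had a median log2 fold change of 1.91, against 0.00 over all genes tested. The changes spanned a wide range, largest for Nfkbia (13.3-fold) and Nfkbie (11.97-fold) and smallest for Tnip3 (1.37-fold). With IL4 none of the 10 rose, where 9.89% of all genes tested did, and Nfkbia and Nfkbie fell, where 7.33% did. With TGFb 6 rose by 1.23-fold to 2.12-fold, where 24.1% of all genes tested were called higher. Tnip3 fell with TGFb, where 23.4% were called lower. Tests throughout are limma's moderated test on log2(value + 1), with p-values adjusted by Benjamini and Hochberg over all genes tested, and calls at adjusted p below 0.05. With every library scaled to the same total, 35.5% of the calls with LPS+IFNg were higher calls, against 50% as deposited. The same share was 34% against 57.4% for IL4 and 37.8% against 50.8% for TGFb, and with quantile normalization 38.8% for LPS+IFNg and 47.4% for IL4. The same total also moved the median of all genes with LPS+IFNg by -0.12, and under both scalings the counts of the 10 genes higher and lower against untreated were as deposited.

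**Figure D1:**
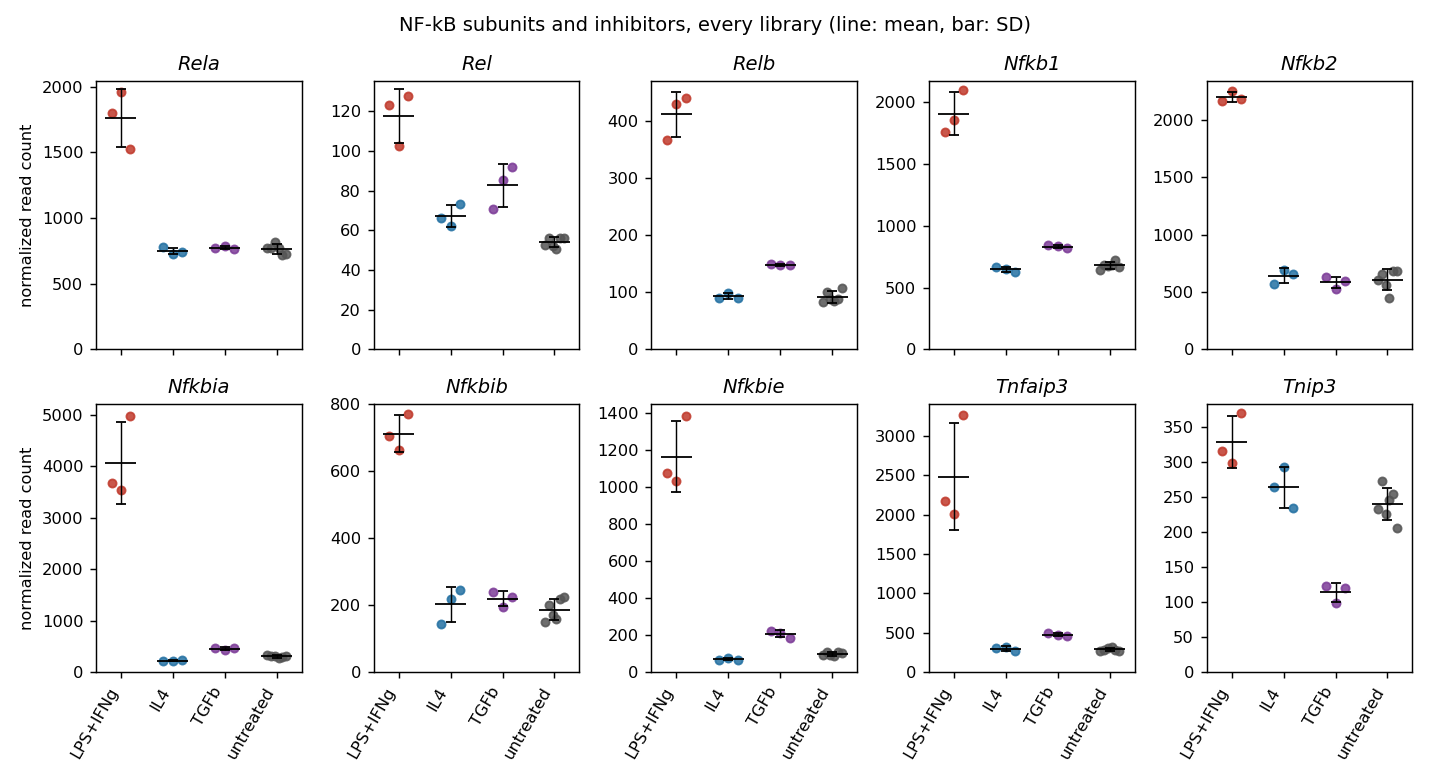
Normalized read count (y axis, linear, from 0) of each of the 10 genes in every library, by group on the x axis. Points are libraries, the line is the group mean and the bar the SD (n = 3 with LPS+IFNg, IL4 and TGFb, n = 6 untreated). The LPS+IFNg points lie above all untreated points in all 10 panels, and the TGFb points of Tnip3 lie below them.

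Rela, whose product is the main activating subunit of the classical pathway, lies at chr19:5637483-5648130 (GRCm38, plus strand). It had 1801, 1956 and 1524 normalized reads with LPS+IFNg, 776, 728 and 738 with IL4, 773, 783 and 762 with TGFb, and 717 to 819 (median 768) in untreated cells. The LPS+IFNg libraries stood clear of the rest, and the other 3 groups overlapped. The log2 fold change with LPS+IFNg was 1.201 ± 0.06 (SE; limma, adjusted p = 8.67e-12), or 1.30 without replicate 3, which was the lowest of its group for this gene. Against untreated cells it was -0.03 with IL4 (95% interval -0.16 to 0.11; limma adjusted p = 0.834) and 0.02 with TGFb (-0.11 to 0.15; limma adjusted p = 0.81).

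Rel encodes c-Rel, a subunit best known from lymphocytes and from cytokine genes of macrophages. It is on chr11:23736847-23770970 (minus strand) and had the lowest values of the subunits, also per kb. It had 123, 102 and 128 normalized reads with LPS+IFNg, 66.3, 62.1 and 73.3 with IL4, 70.8, 85.4 and 91.8 with TGFb, and 50.4 to 56.3 (median 54.4) in untreated cells. All libraries of the 3 stimuli were above all untreated ones, and IL4 and TGFb overlapped. Rel rose with LPS+IFNg (log2 fold change 1.11 ± 0.12, limma adjusted p = 2.71e-07; 1.05 without replicate 3). It also rose with TGFb (0.60 ± 0.12, limma adjusted p = 0.000477). With IL4 its log2 fold change of 0.31 did not pass the threshold (limma adjusted p = 0.0883), although the libraries did not overlap, as was so for 13% of all genes tested in that direction.

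Relb, whose product pairs with the Nfkb2 product in the alternative pathway, is on chr7:19606217-19629438 (minus strand). It had 366, 429 and 439 normalized reads with LPS+IFNg, 89.6, 98.8 and 89.4 with IL4, 149, 147 and 147 with TGFb, and 83.0 to 107 (median 87.8) in untreated cells. The LPS+IFNg libraries were highest, those of TGFb came next with no overlap, and IL4 and untreated overlapped. Relb had the largest change among the subunits with LPS+IFNg, 4.48-fold (log2 2.15 ± 0.10, limma adjusted p = 1.38e-12; 2.10 without replicate 3). It rose 1.61-fold with TGFb (log2 0.69, limma adjusted p = 1.8e-05), and the value with IL4 was 0.02 (95% interval -0.20 to 0.23; limma adjusted p = 0.935).

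Nfkb1 (chr3:135584655-135691547, minus strand) encodes the precursor of the classical partner of RelA. It had 1762, 1859 and 2098 normalized reads with LPS+IFNg, 668, 651 and 624.9 with IL4, 845, 832 and 819 with TGFb, and 639 to 721 (median 679) in untreated cells. TGFb libraries lay between those of LPS+IFNg and of untreated cells without overlap. The log2 fold change was 1.49 ± 0.05 with LPS+IFNg (limma adjusted p = 3.71e-14; 1.42 without replicate 3) and 0.30 ± 0.05 with TGFb (limma adjusted p = 0.000201). With IL4 it was -0.07 (limma adjusted p = 0.467), and the libraries overlapped.

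Nfkb2 (chr19:46304320-46312385, plus strand) encodes the precursor that the alternative pathway cuts. It had 2167, 2248 and 2180.2 normalized reads with LPS+IFNg, 571, 695 and 659.9 with IL4, 628, 529 and 592 with TGFb, and 446 to 686 (median 630.2) in untreated cells. All LPS+IFNg libraries were above the others, and IL4, TGFb and untreated libraries overlapped. The coefficient of variation was 1.98% with LPS+IFNg and 15.2% in untreated cells. Nfkb2 rose 3.63-fold with LPS+IFNg (log2 1.87 ± 0.11, limma adjusted p = 2.23e-11; 1.88 without replicate 3). The values with IL4 (0.09, limma adjusted p = 0.612) and TGFb (-0.04, limma adjusted p = 0.764) did not pass the threshold. Nfkb2 shares 299 of its 4584 exon bases with Psd and 531 with AC114539.1, both on the opposite strand, and whether reads were counted by strand is not given in the sources used here. Psd averaged 65.1 ± 13.6 normalized reads with LPS+IFNg and 44.9 ± 8.41 in untreated cells (SD, n = 3 and n = 6).

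**Figure D2:**
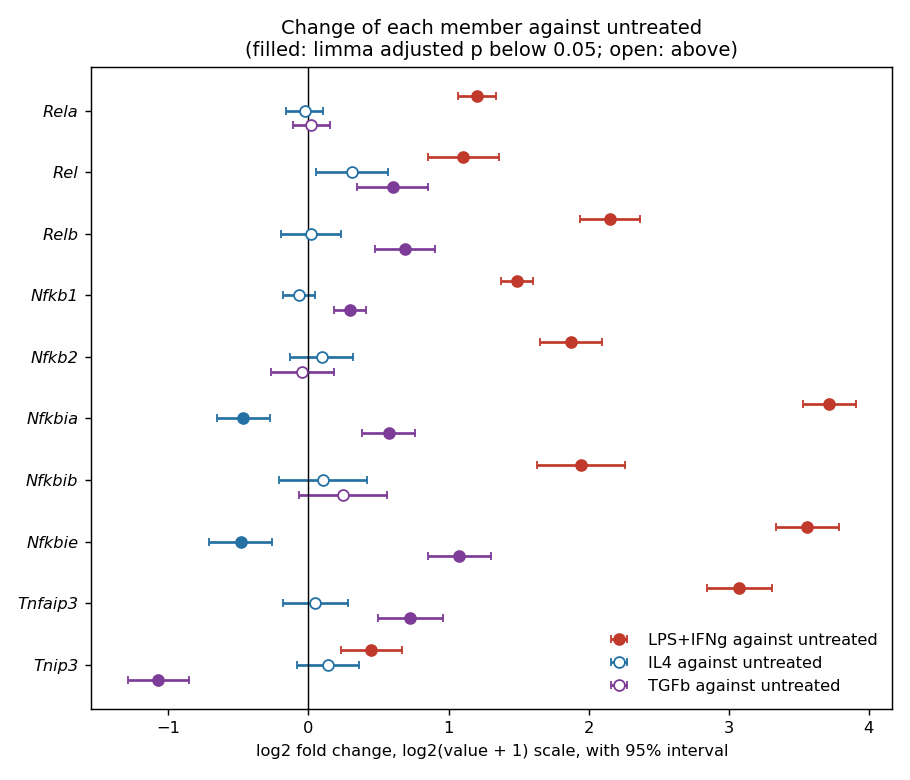
Log2 fold change against untreated (x axis, log2(value + 1) scale) of each of the 10 genes (y axis) with LPS+IFNg, IL4 and TGFb. Points are limma estimates with 95% intervals, filled where the adjusted p is below 0.05, and the line at 0 marks no change. All 10 LPS+IFNg points are filled and right of 0, while with IL4 only Nfkbia and Nfkbie are filled, both left of it.

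Among the inhibitors, Nfkbia changed most. Its product, IkB alpha, is the quickly degraded and quickly remade inhibitor that ends a burst of NF-kB activity. The gene is on chr12:55489410-55492647 (minus strand), and its kappa-B match is printed above. It had 3672, 3534 and 4981 normalized reads with LPS+IFNg, 214, 223 and 224 with IL4, 474, 425 and 461 with TGFb, and 263 to 330.1 (median 313) in untreated cells. The 4 groups did not overlap: LPS+IFNg was highest, then TGFb, untreated and IL4. Nfkbia rose 13.3-fold with LPS+IFNg (log2 3.72 ± 0.09, limma adjusted p = 1.27e-16; 3.56 without replicate 3) and 1.49-fold with TGFb (log2 0.57 ± 0.09, limma adjusted p = 4.35e-05). It fell to 0.722-fold with IL4 (log2 -0.46 ± 0.09, limma adjusted p = 0.00138), where 7.33% of all genes tested were called lower and 10% lay below untreated without overlap.

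Nfkbie encodes IkB epsilon, an inhibitor that is remade more slowly than IkB alpha, and is on chr17:45555703-45563169 (plus strand). It had 1074, 1031 and 1382 normalized reads with LPS+IFNg, 66.3, 73.4 and 67.3 with IL4, 221, 211 and 184 with TGFb, and 86.9 to 108 (median 95.3) in untreated cells. The order of the groups was that of Nfkbia, again without overlap. Its log2 fold change was 3.56 ± 0.11 with LPS+IFNg (limma adjusted p = 2.12e-15; 3.43 without replicate 3). With TGFb it rose 2.12-fold (log2 1.08 ± 0.11, limma adjusted p = 1.57e-07), the largest rise among the 10 genes with TGFb. With IL4 it fell to 0.711-fold (log2 -0.48 ± 0.11, limma adjusted p = 0.00375).

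Nfkbib encodes IkB beta and is on chr7:28758251-28767512 (minus strand). It had 703, 661 and 769 normalized reads with LPS+IFNg, 144, 219 and 245 with IL4, 239, 194 and 223 with TGFb, and 149 to 224 (median 185) in untreated cells. Only the LPS+IFNg libraries stood apart from the others (log2 fold change 1.94 ± 0.15, limma adjusted p = 2.19e-09; 1.89 without replicate 3). The spread was wide within IL4 (coefficient of variation 25.8%) and within untreated libraries (17.1%). Values with IL4 (0.10, 95% interval -0.21 to 0.42; limma adjusted p = 0.706) and TGFb (0.25, -0.07 to 0.56; limma adjusted p = 0.192) did not pass the threshold. Nfkbib shares 314 of its 2169 exon bases with Ccer2 and 42 with Sirt2 on the opposite strand. Sirt2 averaged 619 ± 93.7 normalized reads with LPS+IFNg and 507 ± 39.7 in untreated cells (SD, n = 3 and n = 6).

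Tnfaip3 encodes an enzyme that edits ubiquitin chains on receptor complexes and so restrains the kinases above IkB. It is on chr10:19000910-19015657 (minus strand). It had 2178, 2009.9 and 3263 normalized reads with LPS+IFNg, 304, 322 and 268 with IL4, 494, 469.5 and 464 with TGFb, and 269 to 319 (median 279.5) in untreated cells. LPS+IFNg replicate 3 was well above its 2 fellows, TGFb lay above untreated without overlap, and IL4 overlapped untreated. The rise was 8.63-fold with LPS+IFNg (log2 3.07 ± 0.11, limma adjusted p = 3.02e-14; 2.86 without replicate 3) and 1.65-fold with TGFb (log2 0.73 ± 0.11, limma adjusted p = 2.69e-05). With IL4 the log2 fold change was 0.05 (95% interval -0.18 to 0.28; limma adjusted p = 0.821).

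Tnip3 (chr6:65525313-65634040, plus strand) had its lowest values with TGFb. It had 316, 299 and 370.3 normalized reads with LPS+IFNg, 265, 294 and 235 with IL4, 123, 98.2 and 120.4 with TGFb, and 206 to 273 (median 240.2) in untreated cells. The TGFb libraries were the lowest and LPS+IFNg the highest, while IL4 overlapped untreated. With TGFb it fell to 0.474-fold (log2 -1.07 ± 0.11, limma adjusted p = 1.24e-07), and it was the only 1 of the 10 called lower there, where 23.4% of all genes tested were and 22.5% lay below untreated without overlap. With LPS+IFNg it rose 1.37-fold (log2 0.45 ± 0.11, limma adjusted p = 0.00114; 0.36 without replicate 3, adjusted p = 0.0106). With IL4 the value was 0.14 (limma adjusted p = 0.423).

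With TGFb, 6 of the 10 genes were called higher (Nfkb1, Rel, Relb, Nfkbia, Nfkbie and Tnfaip3), where 24.1% of all genes tested were. For these 6 every TGFb library was above every untreated one, as for 23.9% of all genes tested. The median log2 fold change over all 10 was 0.43, against 0.01 over all genes. The 3 stimuli share the untreated libraries, so they were also compared directly. All 10 genes were higher with LPS+IFNg than with TGFb (31.9% of all genes called higher), by 0.51 (Rel) to 3.15 (Nfkbia) on the log2 scale, with limma adjusted p of at most 0.00408. Without LPS+IFNg replicate 3 all 10 were still called, by 0.45 (Rel, limma adjusted p = 0.0205) to 2.99 (Nfkbia). All 10 were also higher with LPS+IFNg than with IL4 (28.8% of all genes), where Nfkbia differed by 4.18 and Nfkbie by 4.04 on the log2 scale (4.03 and 3.91 without replicate 3). The smallest of these differences, Tnip3 at 0.31 (limma adjusted p = 0.034), lost its call without LPS+IFNg replicate 3 (0.22, limma adjusted p = 0.143), without IL4 replicate 1 (0.32, adjusted p = 0.065) and without IL4 replicate 3 (0.23, adjusted p = 0.156). It also lost it with the same total (adjusted p = 0.0721), quantile normalization (0.08) and a fit on these 2 groups (0.0567).

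Between IL4 and TGFb, 5 genes were lower with IL4 (19% of all genes were called lower). These were Nfkbie (log2 -1.56, limma adjusted p = 1.05e-08), Nfkbia (-1.04), Tnfaip3 (-0.68), Relb (-0.67) and Nfkb1 (-0.36). Tnip3 was higher with IL4 than with TGFb, at 264 ± 29.4 against 114 ± 13.7 normalized reads (SD, n = 3 each; log2 1.21, limma adjusted p = 2.21e-07), where 20.7% of all genes were called higher. Rel at -0.29 (limma adjusted p = 0.111), Rela, Nfkb2 and Nfkbib did not pass the threshold.

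Levels of different genes were compared per kb of the longest transcript. In untreated cells Rela was the most abundant subunit, with 43.1 ± 2.85% of the 5 subunits' values per kb, followed by Nfkb1 with 25.3 ± 1.22% and Nfkb2 with 24.1 ± 3.06%, whose libraries overlapped (SD, n = 6). Relb made up 6.37 ± 0.569% and Rel 1.11 ± 0.0284%. With LPS+IFNg all 5 rose, but unequally. The Rela share was 34.4 ± 3.54% with LPS+IFNg (30.3 to 36.7%), against 39.8 to 46.5% in untreated libraries. Nfkb2 held 29.8 to 30.7% with LPS+IFNg, against 18.9 to 26.9% in untreated cells, and Relb 9.88 ± 0.857% against 6.37%. Without replicate 3 the shares with LPS+IFNg were 36.4% for Rela, 30.2% for Nfkb2 and 9.45% for Relb. The Nfkb1 share, 24.6 ± 2.51% with LPS+IFNg, overlapped that of untreated cells (24.2 to 27.2%), but without replicate 3 it was 23.0 to 23.3%, below all untreated libraries. The Rel share was 0.698 to 0.922% with LPS+IFNg (mean 0.798% without replicate 3), 1.26 to 1.52% with IL4, 1.30 to 1.73% with TGFb and 1.06 to 1.14% in untreated cells, so each stimulus lay apart from untreated cells. With TGFb the Relb share was 9.35 ± 0.0925% and the Nfkb1 share 28.2 ± 0.353%, both above all untreated libraries, and with IL4 the shares of Rela (42.3 ± 1.81%) and Relb (6.44 ± 0.29%) overlapped them (SD, n = 3). These shares depend on the length used: per kb of coding length, Rel made up 2.35% with LPS+IFNg and 3.04% in untreated cells.

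**Figure D3:**
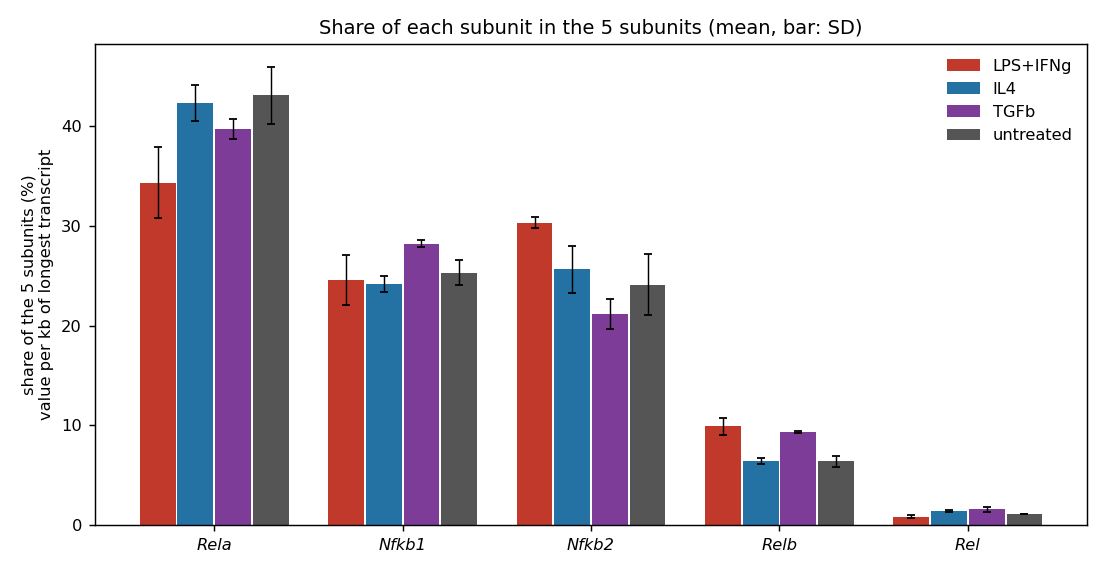
Share of each subunit (x axis) in the summed value per kb of the 5 subunits (y axis, percent, from 0), by group. Bars are means over libraries and lines the SD (n = 3 with LPS+IFNg, IL4 and TGFb, n = 6 untreated). The Rela bar is lower with LPS+IFNg (34.4%) than in untreated cells (43.1%), and the Nfkb2 and Relb bars are higher.

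The RNA of inhibitors was also set against that of Rela. Per kb, Nfkbia RNA was 4.08 ± 1.35 times Rela RNA with LPS+IFNg (3.11 to 5.63), 0.508 ± 0.0292 with IL4 (0.474 to 0.527), 1.01 ± 0.0671 with TGFb (0.933 to 1.06) and 0.69 ± 0.0562 in untreated cells (0.586 to 0.74). The 4 groups did not overlap. The Nfkbie to Rela ratio was 0.755 ± 0.226 with LPS+IFNg, 0.103 ± 0.00863 with IL4, 0.297 ± 0.025 with TGFb and 0.143 ± 0.019 in untreated cells, in the same order and again without overlap. The Nfkbib to Rela ratio was 0.541 ± 0.112 with LPS+IFNg and 0.324 ± 0.0682 in untreated cells, with libraries at 0.445 to 0.665 and 0.256 to 0.407. LPS+IFNg replicate 3 had the highest value of its group in all 3 ratios. Without it the means with LPS+IFNg were 3.31 for Nfkbia, 0.626 for Nfkbie and 0.48 for Nfkbib. Within the inhibitors, Nfkbia was 7.42 ± 0.903 times Nfkbib with LPS+IFNg (6.90 without replicate 3) and 2.19 ± 0.43 times in untreated cells. Tnfaip3 was 6.37 ± 0.99 times Tnip3 with LPS+IFNg (5.80 without replicate 3), 0.962 ± 0.0241 with IL4, 3.59 ± 0.423 with TGFb and 1.03 ± 0.113 in untreated cells. These ratios are descriptions of RNA and were not tested. Their size depends on the length used, which scales a ratio alike in all groups. The longest transcript and longest coding length are 4422 and 2325 bases for Tnfaip3, and 3769 and 837 for Tnip3.

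**Figure D4:**
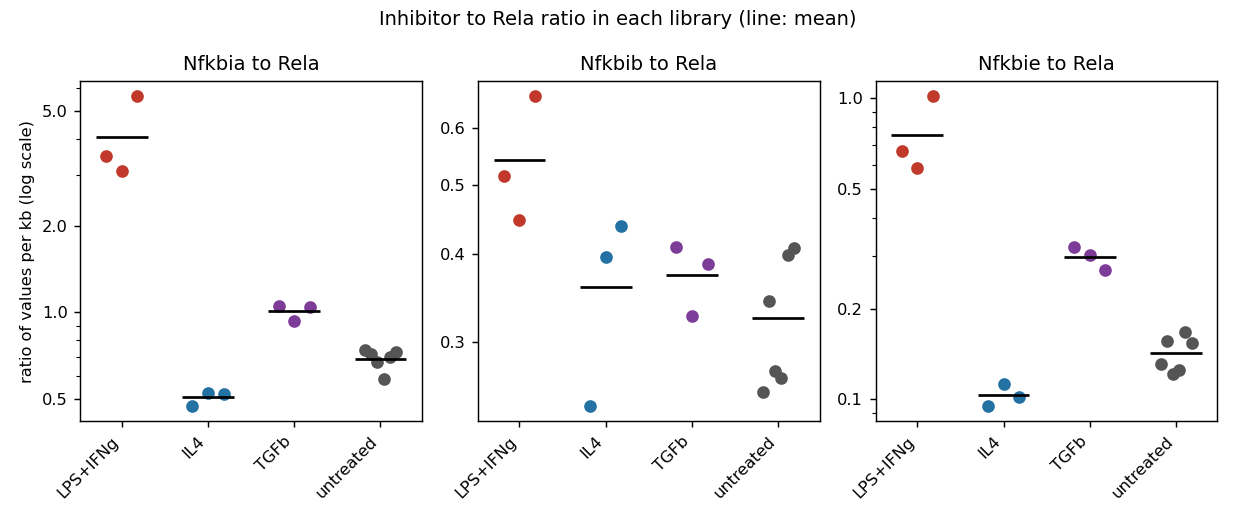
Ratio of the value per kb of Nfkbia, Nfkbib and Nfkbie to that of Rela (y axis, log scale) in every library, by group on the x axis. Points are libraries and lines are group means (n = 3 with LPS+IFNg, IL4 and TGFb, n = 6 untreated). For Nfkbia and Nfkbie the order is LPS+IFNg, TGFb, untreated and IL4 without overlap, and for Nfkbib the IL4, TGFb and untreated points overlap.

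Likeness of pattern was measured over the 3 log2 fold changes against untreated, as the root mean square difference, for the genes tested. Predicted genes, RIKEN clones, ribosomal protein genes, microRNA genes and genes with accession-like names were left out, as were the 10 genes themselves. For 8 of the 10 genes another gene lay within 0.1 on the log2 scale. The nearest were Adora2b for Nfkb1 (0.029), Cept1 for Nfkb2 (0.056), Pim2 for Rel (0.07), Tm9sf4 for Rela (0.063), Btg1 for Relb (0.069), Mtmr14 for Nfkbib (0.022), Phf11c for Tnfaip3 (0.067) and Tbrg3 for Tnip3 (0.095). Nfkbia and Nfkbie had no gene within 0.1. The gene nearest to both was C1ra, which encodes a complement protease, at 0.172 from Nfkbia and 0.251 from Nfkbie. Of the genes compared, 1 lay within 0.25 of Nfkbia and 0 within 0.25 of Nfkbie, against 11 for Tnfaip3, 20 for Relb and 212 for Rela. The difference is not scaled to the size of the changes, so these counts also depend on that size. The 3 fold changes share the untreated libraries, so likeness over them is a description.

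Other genes of the pathway were counted from 5 lists of textbook members. The counts are to be read against the share of all genes tested that was called higher and lower: 29.5% and 29.4% with LPS+IFNg, 9.89% and 7.33% with IL4, and 24.1% and 23.4% with TGFb. These shares come from the fit with all 15 libraries. No such shares are given without LPS+IFNg replicate 3, so the counts without it have no matching background. Among receptors and adaptors that signal to NF-kB, 13 of 31 were called higher and 6 lower with LPS+IFNg (15 and 8 without replicate 3), 8 and 3 with IL4, and 9 and 6 with TGFb. The counts with TGFb were near the background. Tlr2, a receptor for bacterial lipoproteins, averaged 2466 ± 293 normalized reads with LPS+IFNg, 264 ± 38.5 with IL4, 1834 ± 48.4 with TGFb and 523 ± 37.2 in untreated cells (SD, n = 3, 3, 3 and 6). It was among the 4 receptor calls with the smallest adjusted p for each stimulus, higher with LPS+IFNg (log2 2.23, limma adjusted p = 6.65e-14) and TGFb (1.81, adjusted p = 7.6e-12) and lower with IL4 (-0.99, adjusted p = 1.61e-07). With LPS+IFNg the tumour necrosis factor receptor Tnfrsf1b (log2 1.62), the peptidoglycan sensor Nod2 (3.22) and its kinase Ripk2 (2.22) also rose. Without replicate 3 these values were 1.76, 3.27 and 2.15, and that of Tlr2 was 2.33. With IL4, Tlr8 rose to 79.7 ± 7.37 normalized reads, against 4.603 ± 1.74 in untreated cells (limma adjusted p = 2.13e-08). Ripk2 rose with IL4 too (log2 0.81), and Cd14, the co-receptor for LPS, fell (-0.47). With TGFb, Tnfrsf1b (0.89) and Irak2 (1.16), a kinase of Toll-like receptor signalling, rose, and Tlr1 fell (-1.06).

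Among 12 kinases of the cascade and their partners, 7 were higher and 1 lower with LPS+IFNg (5 and 1 without replicate 3), 1 higher and 0 lower with IL4, and 3 higher and 1 lower with TGFb. The counts with IL4 and TGFb were near or below the shares of all genes tested. With LPS+IFNg Ikbke (log2 2.13, limma adjusted p = 1.9e-12) and Tbk1 (1.11), related to the IkB kinases, rose (without replicate 3 by 2.26 and 1.11). Their adaptor Tank (1.07) and Map3k8 (1.82), a kinase held by the Nfkb1 precursor, rose too (without replicate 3 by 0.99 and 1.54). With IL4 Tbk1 rose (0.34, limma adjusted p = 0.00366). With TGFb Ikbke fell (-0.32), while Map3k7 (0.20), Map3k14 (0.67), the kinase of the alternative pathway, and Ikbkb (0.14) rose, with limma adjusted p of 0.0148 to 0.0455. The 4 calls with TGFb became 0 without TGFb replicate 2 and likewise 0 when untreated replicates 1 and 4 and TGFb replicate 2, the shallowest libraries, were left out.

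Of 20 ubiquitin ligases, deubiquitinases and their partners, 11 were higher and 3 lower with LPS+IFNg, with and without replicate 3, 1 and 1 with IL4, and 4 and 3 with TGFb. The counts with IL4 and TGFb were below the shares of all genes tested. With LPS+IFNg the ligase gene Birc3 (log2 2.75, limma adjusted p = 1.67e-11), Rnf31 (1.59) of the linear ubiquitin ligase, and Tnip1 (1.30), of the same family as Tnip3, rose (without replicate 3 by 2.50, 1.503 and 1.38). Otulin, which removes linear chains, fell with LPS+IFNg (-0.84, limma adjusted p = 1.19e-09; -0.79 without replicate 3) and rose with IL4 (0.33, limma adjusted p = 0.000876). Tnip1 fell with IL4 (-0.28). With TGFb Btrc (0.33), a receptor of the ligase that marks IkB, and Tnip2 (0.34) rose, and the conjugating enzymes Ube2n (-0.28) and Ube2d3 (-0.18) fell.

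Of 20 other IkB family members and nuclear regulators 19 were tested. With LPS+IFNg 6 were higher and 6 lower (6 and 2 without replicate 3), with IL4 0 and 1, and with TGFb 6 and 3. With all LPS+IFNg libraries the shares higher and lower were near those of all genes tested. The atypical IkB gene Nfkbiz had 475, 469 and 1224 normalized reads in the LPS+IFNg libraries, where it averaged 723 ± 434, and 72.9 ± 11.3 in untreated cells (SD, n = 3 and n = 6; log2 3.15, limma adjusted p = 7.71e-10). Without replicate 3 its LPS+IFNg mean was 472 and its log2 fold change 2.69 (limma adjusted p = 1.17e-11). Bcl3, also of the IkB family, averaged 85.2 ± 60.2 with LPS+IFNg and 16.2 ± 4.07 in untreated cells (log2 2.15, limma adjusted p = 1.2e-05). Without replicate 3, which had 154.7 against 52.7 and 48.1 in the other LPS+IFNg libraries, the mean was 50.4 and the log2 fold change 1.62 (limma adjusted p = 5.08e-05). Nfkbil1 (1.19, and 1.29 without replicate 3) and Rbpj (0.87, and 0.72) rose with LPS+IFNg as well, and Rbpj fell with IL4 (-0.46). With TGFb, Cdk9 (0.36) and Pdlim2 (0.58) rose and Commd1 fell (-0.43).

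Textbook NF-kB target genes moved most with LPS+IFNg. Of 50 on the list 39 were in the table and 38 were tested, and of these 34 were higher and 1 lower with LPS+IFNg, 9 and 3 with IL4, and 11 and 7 with TGFb. The counts with LPS+IFNg were the same without replicate 3, and those with TGFb were near the background. Their median log2 fold change was 3.38 with LPS+IFNg, also with Lcn2 set at its bound (3.07 without replicate 3), 0.09 with IL4 and 0.04 with TGFb, against 0.00, 0.00 and 0.01 over all genes tested. Some target genes, such as Lcn2, Cxcl2, Cxcl9 and Traf1, reached a value of 10 only with LPS+IFNg and passed the filter through that group alone. The table holds no gene whose highest value was below 11.06, so listed genes low in every group are not counted. The counts and median with LPS+IFNg are thus partly set by the filter. With LPS+IFNg the transcription factor gene Irf1 averaged 7739 ± 1888 normalized reads, against 77.2 ± 7.97 in untreated cells (limma adjusted p = 2.6e-18; 6652 without replicate 3). The acute phase gene Saa3 (log2 6.57), Tapbp (3.24) of antigen loading and the transporter gene Slc2a6 (2.20) also rose (without replicate 3 by 6.57, 3.20 and 2.24). The antimicrobial gene Lcn2 had 489, 372 and 203 reads in the LPS+IFNg libraries. No read of it was recovered in the IL4, TGFb or untreated libraries, where the floor of 1 in the deposited values can hide up to 2 reads in each group. With the untreated group set at 3 reads, more than the 2 that the floor can hide, Lcn2 was 581-fold higher with LPS+IFNg. This is a bound for the reads of these libraries and does not allow for counting noise. Cxcl2 had 256, 177 and 85 reads with LPS+IFNg and Traf1 124, 124 and 141. Cxcl9 had 193, 120 and 6802, so replicate 3 holds nearly all of its 7115 reads, and without it the mean was 126 normalized reads, against 2644 with it. No read of these 3 was recovered with TGFb, and 3 (Cxcl2), 5 (Traf1) and 1 (Cxcl9) were recovered in untreated cells, with up to 2 more that the floor can hide in each of these groups. With IL4, Ier3 (0.62) and the chemokine gene Ccl7 (2.77) rose, and Ccl3 (-1.06) and Tnf (-0.93) fell. With TGFb, Plau (1.31), Junb (1.97) and Cflar (0.72), an inhibitor of cell death, rose and Ccl3 fell (-0.83). Birc3 and Cd40 each stand in 2 of the lists.

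**Figure D5:**
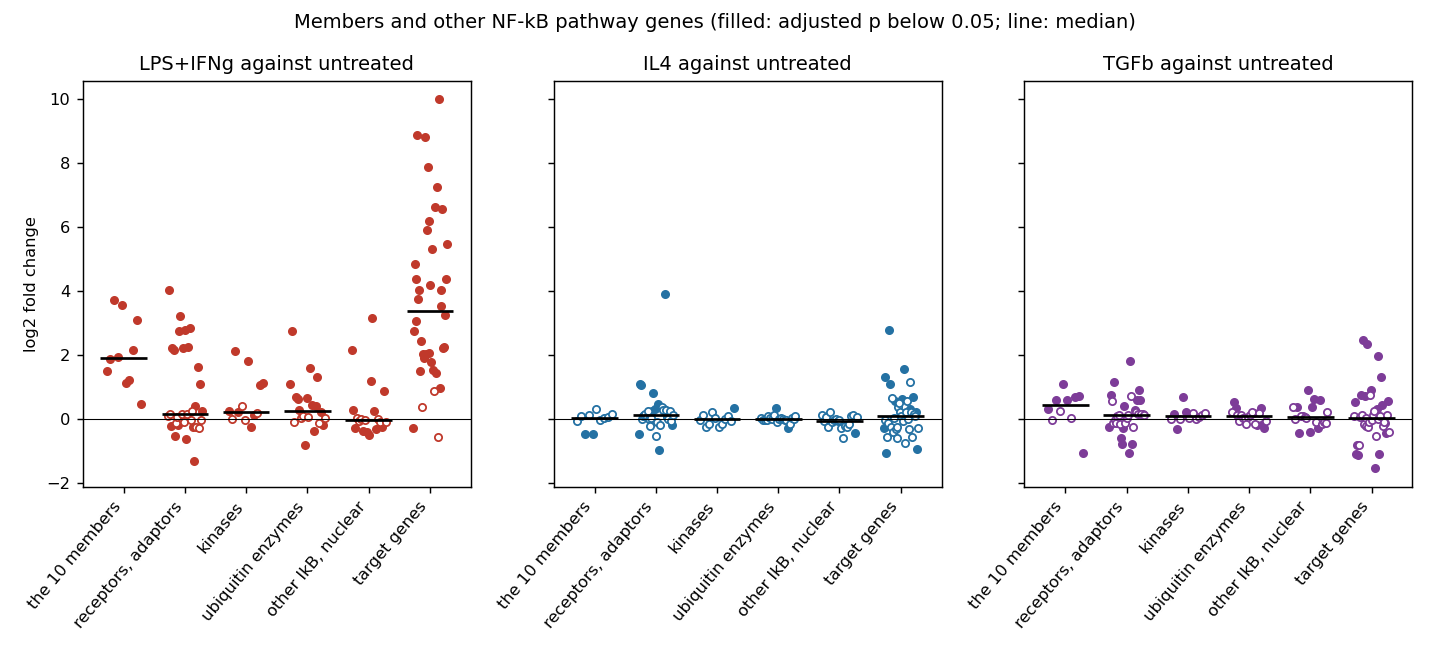
Log2 fold change against untreated (y axis, log2(value + 1) scale) of the 10 genes and of the 5 pathway lists (x axis), with a panel each for LPS+IFNg, IL4 and TGFb. Points are genes, filled where limma's adjusted p is below 0.05, lines are medians, and horizontal spread within a list carries no meaning. With LPS+IFNg the medians of the 10 genes (1.91) and of the target genes (3.38) lie above those of the other lists. Some target genes passed the filter through the LPS+IFNg libraries alone.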

How the data were processed

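RNA sequencing was done on 15 libraries of ESdM. The labels' protocols give TRIZOL extraction and the Illumina TruSeq RNA Sample kit from 1 µg of total RNA. Per the submitters' processing notes, TopHat2 2.0.3, Partek 6.6, R 3.0.2 and DESeq2 were used, with the build mm10; annotation, counting rule and use of strand are not given in the sources used here. The deposited values are a normalized signal for each gene. Judged from the values, read counts were scaled by a single factor in each library and anything below 1 was raised to 1. In units of 1 read, at least 99.98% of the values above 1 were whole (tolerance 0.1 reads, or more where the deposited digits are coarser). These reads were used for depth, for genes with 0 reads and to compare the 24 pairs of libraries within groups, none of which differed by counting noise alone. All 15 value columns were used.

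The test was limma 3.58.1 in R 4.3.3, with trend, on log2(value + 1), in 1 fit over 15 libraries with 6 contrasts. A gene was tested if 3 or more libraries had a value of 10 or above, which left 11138 of 11201. Fold changes on this scale understate those of low genes, and plain folds are ratios of group means. Positions and lengths are from GENCODE M21 (GRCm38). Alternatives were the pseudocount, the filter, the scaling, a fit on 2 groups, libraries left out and coding length. From each pathway list, up to 4 called members with the smallest adjusted p per stimulus are named, and genes with 0 reads in a group; 1 gene that this rule took is not reported here. The 10 genes and the lists were chosen with earlier results of these data known. The fit was tested on simulated data.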

Additional observations from a re-analysis of the deposited data

How the results depend on the processing

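Under the alternatives that were run (a pseudocount of 0.5 or 10, no filter or a minimum of 50, the same total, quantile normalization, only the groups compared, the 3 libraries with the fewest reads left out, and each library left out), the number of the 10 genes called stayed within 1.5 times in all 93 cases. Of the fold changes of the 10 genes, 924 kept their side of the threshold and 6 were weaker, all of Tnip3 between LPS+IFNg and IL4. Of those called, 0 reversed. Some that were not called changed sign, such as Nfkbib with IL4 against untreated (0.10, and -0.05 without IL4 replicate 3). edgeR and DESeq2 were not run. No paired analysis was possible because the replicate numbers only name the libraries. Counts of the pathway lists were less steady where few genes were called. Of the 12 kinases, 1 was called with IL4 (2 with the same total; 1 to 2 with a library left out) and 4 with TGFb (2 with the same total, 2 with quantile normalization, 0 without the 3 libraries with the fewest reads; 0 to 5 with a library left out). Of the ubiquitin enzymes, 2 were called with IL4 (1 to 2 with a library left out) and 7 with TGFb (12 in the fit on 2 groups). Of the other IkB and nuclear regulators, 1 was called with IL4 (2 at a minimum of 50, 5 with the same total, 2 with quantile normalization, 3 in the fit on 2 groups; 1 to 3 with a library left out) and 9 with TGFb (5 without the 3 libraries; 5 to 8 with a library left out). Fits that leave out a library or 3 have fewer samples; otherwise the cause was not tested. With coding length, subunit shares with LPS+IFNg were 2.35% for Rel, 8.62% for Relb and 28.6% for Nfkb2, and in untreated cells 46.1% for Rela, 3.04% for Rel, 5.45% for Relb and 23.2% for Nfkb1. Reads limit the lowest values most: Rel had 18 reads in its shallowest library.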

Other observations

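LPS+IFNg replicate 3 was the highest of its group for 8 of the 10 genes and the lowest for Rela, and TGFb replicate 1 was the highest of its group for 8 of the 10. Nfkb2 and Nfkbib, the 2 of the 10 genes that share exon bases with genes on the opposite strand, had the widest spread among untreated libraries (coefficients of variation 15.2% and 17.1%). For both, untreated replicates 1, 3 and 4 were the 3 lowest: Nfkb2 had 607, 561 and 446 normalized reads there and 653, 682 and 686 in replicates 2, 5 and 6, and Nfkbib had 149, 169.97 and 157 there and 199.9, 217 and 224 in replicates 2, 5 and 6. Both also had their lowest IL4 value in replicate 1 and their lowest TGFb value in replicate 2. This was noticed in the data and was not tested.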
